A study of Mus musculus with 12 samples.

Results

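The report describes 59 genes of glutathione, xenobiotic and antioxidant metabolism in the descending aorta of adult and old mice. They were found as the gene probes of the array whose gene name equals one of the 59 names, which gave 85 of 55681 gene probes. Of the 59 genes, 55 stood well above the array background on at least 6 of the 12 arrays and could be tested, among 16853 genes tested in all. The 4 others are described with their classes. The genes were sorted by role into 9 classes, from the glutathione transferases to the superoxide dismutases.

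The series set adult against old mice to find age-related expression in the vessel wall. Male C57BL/6 mice were kept to an age of 6 months or 20 months on standard chow, with 6 mice per age, and all were otherwise untreated as far as the labels say. The descending aorta was rinsed with cold saline, freed of the fat and connective tissue around it and frozen. Its total RNA was hybridised to 1 Agilent 1-colour array per mouse.

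Glutathione is a small thiol that cells make from glutamate, cysteine and glycine and use to reduce peroxides and to tag reactive compounds for export. Glutathione transferases attach it to such compounds, glutathione peroxidases spend it on peroxides, and thioredoxin with the peroxiredoxins forms a parallel thiol system. The transcription factor NRF2, encoded by Nfe2l2 and held in check by KEAP1, drives many of these genes when electrophiles or oxidants appear, while the aryl hydrocarbon receptor drives Cyp1a1 and Cyp1b1. In arteries these systems limit the loss of nitric oxide to superoxide.

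The share of gene probes detected well above background ran from 47.5% to 55.8% over the arrays. There were 3 slides of 4 arrays, with 2 arrays of each age per slide. All 20-month arrays lay in column 3 of their slide, whereas 5 of the 6-month arrays lay in column 1 and the remaining one in column 4, so age and position cannot be told apart. Of the smooth muscle markers, 6 of 6 were measured, with Acta2 at 10.1 at both ages (log2). Markers of other tissues were high on single arrays. Heart muscle markers exceeded their 12-array average by 3.48 in 20 months replicate 1 and by 2.28 in 6 months replicate 1 (mean over the list, log2), and T and NK cell markers exceeded theirs by 1.84 in 6 months replicate 4. Fat markers were measured at both ages although the vessels had been cleaned. Ucp1, the uncoupling protein of brown fat, stood at a mean of 7.92 in the younger and 7.28 in the older mice, and that of Adipoq, the fat hormone adiponectin, was 7.17 and 7.02. All 4 measured mesothelium markers had a change below 0, with a median of -2.28 and 0 called, and their mean deviation from the 12-array average ran from -0.12 to 2.55 at 6 months and from -2.35 to 0.87 at 20 months. All 5 mast cell markers had one above 0, with a median of 0.63 and 1 called (Tpsb2, limma adjusted p = 0.041), and a mean deviation from -0.70 to 0.27 at 6 months and from 0.04 to 0.56 at 20 months. All 7 measured macrophage markers had a change above 0, with a median of 0.30 and 0 called, and a mean deviation from -0.46 to 0.20 and from 0.01 to 0.41. Their part in the values below was not tested.

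No gene of the 55 passed the test for a difference between the ages. Here and below, a level is the log2 of the processed signal relative to the 75th percentile of its array, a change is the level at 20 months minus that at 6 months with the standard error of the limma fit, and an adjusted p is Benjamini-Hochberg over all genes tested. A call needs an adjusted p under 0.05. Of all genes, 53 were called (0.314%), 44 of them higher (0.261%) and 9 lower (0.0534%) at 20 months, against 0 of the 55 in either direction. At an unadjusted p under 0.05 there were 4 of the 55, or 7.27%, beside 8.0% of all genes. These 4 are Txn1, Gss, Ephx1 and Gstk1. The values of the ages did not overlap in 1 of the 55, Txn1, beside 0.801% of all genes.

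The changes of the 55 genes ran from -0.36 for Sod2 to 0.41 for Mgst2. Their median was -0.01, beside -0.02 over all genes, with 27 changes above 0 and 28 below. With quantile normalization in place of the 75th percentile the split was 31 to 24, and with centring on the array median it was 32 to 23. None reached 1.5-fold, which 1.86% of all genes did. The 95% interval of the change lay within 1.5-fold in both directions for 47 of the 55 and within 2-fold for 53. The widest upper bound was 1.1 for Gsta3 and the lowest lower bound was -0.80 for Sod2.

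**Figure D1:**
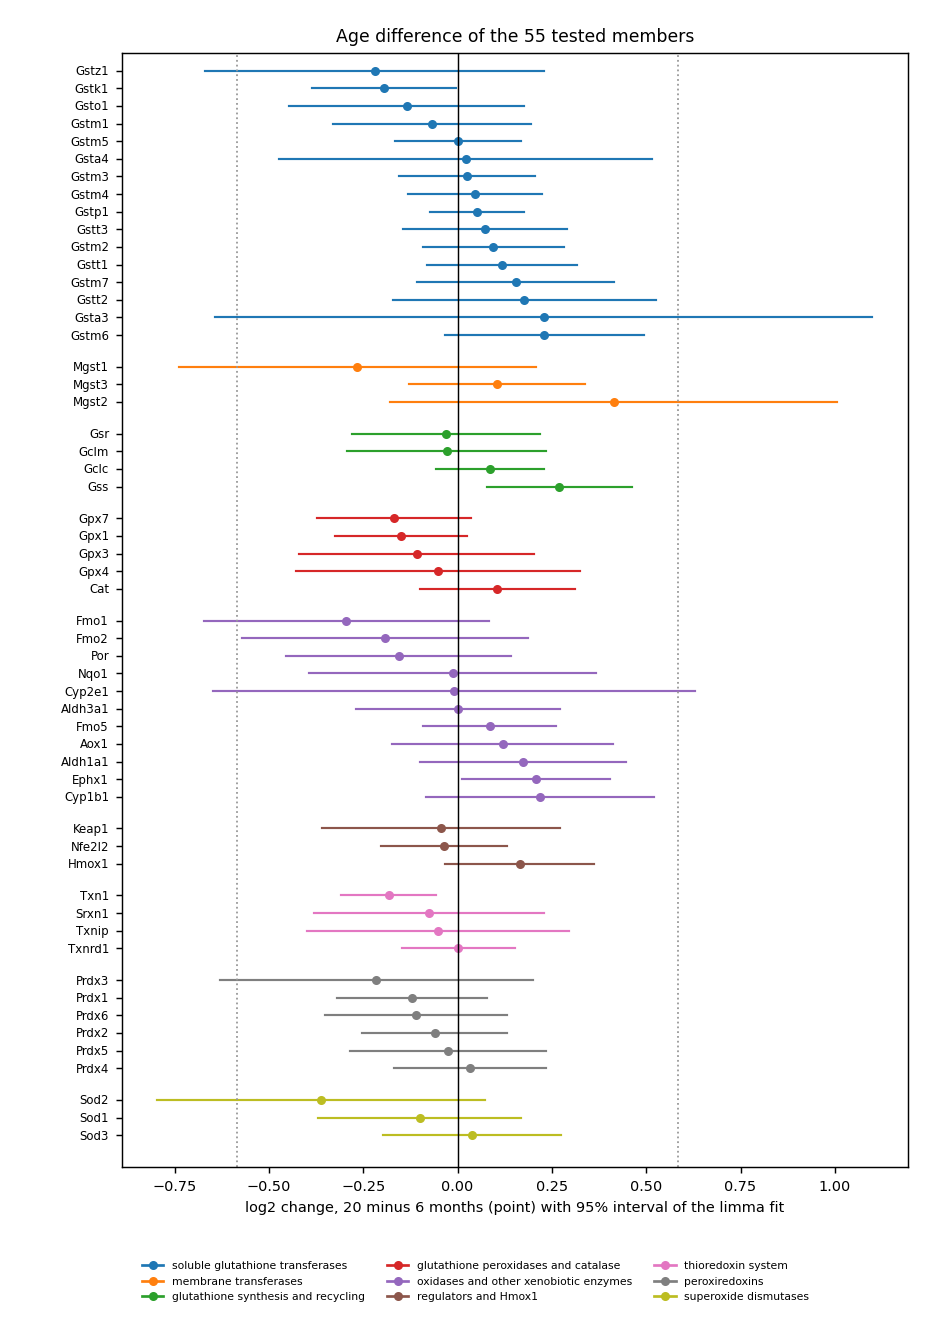
Change of each of the 55 tested genes between the ages (points, log2, 20 minus 6 months) with the 95% interval of the limma fit (lines), coloured by class, and dotted lines at 1.5-fold. The points lie between -0.36 and 0.41, and the intervals of Txn1, Gss, Ephx1 and Gstk1 leave out 0 before adjustment.

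The soluble glutathione transferases are cytosolic enzymes, with Gstk1 in mitochondria and peroxisomes, that join glutathione to electrophiles. Of 18, 16 were tested and 0 were called, with 12 changes above 0, 4 below and a median of 0.05. Quantile normalization turned the split to 13 and 3, and normexp background correction to 11 and 5. Gsta1 and Gsta2 stood above background on 0 of 12 arrays, so the alpha class was represented by Gsta3 and Gsta4. The Gsta1 and Gsta2 probes share 46 of the 50 bases over which they overlap (92%).

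Gstk1 had the lowest unadjusted p of this class. Its signal ranged from 3.74 to 4.19 with a median of 4.03 at 6 months, and from 3.69 to 3.99 with a median of 3.79 at 20 months. All 6 old mice lay below the younger median, yet 6 months replicate 5 was as low as the old mice. The change was -0.20 ± 0.09 (adjusted p = 0.605), and it was -0.17, -0.15 and -0.26 on the 3 slides taken alone. With the brown adipocyte marker mean as a covariate it was -0.12 ± 0.09. The probe lies at chr6:42200381-42200440 of the mm9 build on the plus strand.

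Gstm6 and Gstm7 belong to the mu class, a cluster of related genes on chromosome 3. Gstm6 lay between -0.68 and -0.35 with a median of -0.62 at 6 months, and between -0.70 and -0.02 with a median of -0.31 at 20 months. Of the old mice, 3 lay above every younger mouse and 1 below every one, for a change of 0.23 ± 0.12 (adjusted p = 0.680). Gstm7 lay between -0.32 and 0.40 with a median of 0.02 at 6 months, and between -0.07 and 0.36 with a median of 0.16 at 20 months. Its old values fell inside the younger range, and the change was 0.15 ± 0.12 (adjusted p = 0.769).

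The mu genes are related in sequence, and probes of 3 of them are printed to show where these match and where they differ. Capitals in the second and the third line mark bases that match the Gstm3 probe in the best ungapped alignment.

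Gstm3: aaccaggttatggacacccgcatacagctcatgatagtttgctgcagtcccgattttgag

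Gstm6: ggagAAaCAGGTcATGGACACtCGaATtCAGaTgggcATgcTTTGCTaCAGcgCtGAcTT

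Gstm7: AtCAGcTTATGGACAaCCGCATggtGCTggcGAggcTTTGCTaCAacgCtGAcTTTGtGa

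The Gstm6 probe, at chr3:107745052-107745111 of mm9 on the minus strand, matches at 39 of 56 aligned bases (69.6%), and the Gstm7 probe at 40 of 59 (67.8%). The Gstm3 probe spans chr3:107769290-107770549 and the Gstm7 probe chr3:107732073-107733247, both on the minus strand and both across a gap in the genome of more than the probe's own length. The Gstm6 probe printed here is one of 3 on the array and not the brightest, which gave the values above. Cross-hybridisation within the mu class was not tested.

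The other soluble transferases are given by their range. Gsta3, Gsta4, Gstm2, Gstm3, Gstm4, Gstm5, Gstp1, Gstt1, Gstt2 and Gstt3 had changes between 0.00 for Gstm5 and 0.23 for Gsta3. Gstm1 stood at -0.07, Gsto1 at -0.14 and Gstz1 at -0.22. The value of Gstm1 is that of its brighter probe, placed on chromosome 5, and its probe on chromosome 3 had -0.03. The spread between mice was very unequal in this class. Gstp1, the pi class enzyme, varied by 0.18 (log2) over all 12 arrays, whereas Gsta3 had its lowest value, 2.75, in 6 months replicate 2 and its highest, 5.21, in 20 months replicate 3. The SD within an age of Gsta3 was larger than that of 98.7% of all genes tested, and that of Gstp1 larger than that of 0.0771%.

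The membrane transferases are small proteins of the endoplasmic reticulum and the outer mitochondrial membrane that also act on lipid peroxides and leukotrienes. All 3 were tested and 0 were called, with a median change of 0.10. Mgst1 ran from 5.21 to 6.43 with a median of 6.00 at 6 months, and from 5.22 to 6.17 with a median of 5.49 at 20 months. The ranges of the ages were nearly the same and the change was -0.27 ± 0.22 (adjusted p = 0.776). With the brown adipocyte marker mean as a covariate it was 0.03, of the opposite sign. Mgst2, which can make leukotriene C4, ran from 0.41 to 1.71 with a median of 1.27 at 6 months and from 0.89 to 2.47 with a median of 1.5 at 20 months. The 2 highest arrays were 20 months replicates 3 and 1, and the change of 0.41 ± 0.27 was the largest of the 55 (adjusted p = 0.744). Mgst3 ran from 3.16 to 3.64 with a median of 3.37 at 6 months and from 3.26 to 3.90 with a median of 3.46 at 20 months. Its ages overlapped apart from 20 months replicate 3, at a change of 0.10 ± 0.11 (adjusted p = 0.823).

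Glutathione is made in 2 steps, by glutamate-cysteine ligase with its catalytic subunit Gclc and modifier subunit Gclm and then by glutathione synthetase, Gss, and it is regenerated from its oxidised form by glutathione reductase, Gsr. Of this class 4 of 5 genes were tested and 0 were called, with a median change of 0.03. Slc7a11, the cystine importer that feeds the pathway, stood above background on 0 of 12 arrays. The split of 2 changes above 0 and 2 below became 4 and 0 with centring on the array median.

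Gss lay at 0.66, 0.71, 0.45, 0.53, 0.60 and 0.81 in the 6-month mice and at 0.68, 1.09, 0.91, 0.74, 0.98 and 0.98 in the 20-month mice, in order of replicate number. All 6 old mice lay above the younger median and 4 lay above every younger mouse, while 20 months replicates 1 and 4 fell inside the younger range. The change was 0.27 ± 0.09, or 1.21-fold, with a 95% interval from 0.08 to 0.46 and an adjusted p of 0.387. It was 0.30, 0.30 and 0.21 on the 3 slides alone. Its adjusted p was 0.177 without 20 months replicate 1, the lowest of any of the 55 genes over the 26 alternatives tested. Over the alternatives the change of Gss lay between 0.19 and 0.31, with adjusted p up to 1.0. The Gss probe spans chr2:155389432-155390531 of mm9 on the minus strand and so crosses a gap in the genome of more than its own 60 bases. It is printed because it reads a spliced transcript of the gene with the largest change in its class.

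Gss: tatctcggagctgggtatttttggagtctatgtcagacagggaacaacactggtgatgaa

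The other genes of synthesis differed less between the ages. Gclc, the rate-limiting subunit, lay between 1.42 and 1.60 with a median of 1.59 at 6 months and between 1.51 and 1.80 with a median of 1.63 at 20 months. Every younger mouse was exceeded by 5 of the 6 old ones, 20 months replicate 1 being the exception, and the change was 0.09 ± 0.07 (adjusted p = 0.766). Gclm lay between -0.82 and -0.34 with a median of -0.64 at 6 months and between -0.94 and -0.31 with a median of -0.60 at 20 months. The old mice spanned the whole younger range, with a change of -0.03 ± 0.12 (adjusted p = 0.967). Gsr lay between 3.10 and 3.68 with a median of 3.27 at 6 months and between 3.12 and 3.61 with a median of 3.26 at 20 months. Its values overlapped throughout, at -0.03 ± 0.12 (adjusted p = 0.962).

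Glutathione peroxidases and catalase remove peroxides. All 5 were tested and 0 were called, with 4 changes below 0, 1 above and a median of -0.11. With quantile normalization 3 were below 0 and the median was -0.03. Gpx1, the main cytosolic peroxidase, lay between 7.18 and 7.41 with a median of 7.28 at 6 months and between 6.91 and 7.32 with a median of 7.15 at 20 months. The signal of 4 old mice lay below that of every younger one, for a change of -0.15 ± 0.08 (adjusted p = 0.680). Gpx7, a peroxidase of the endoplasmic reticulum, lay between -0.42 and 0.11 with a median of -0.26 at 6 months and between -0.53 and -0.24 with a median of -0.38 at 20 months. In 2 old mice it lay below the younger range, and the change was -0.17 ± 0.09 (adjusted p = 0.688).

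The secreted enzyme Gpx3 lay between 5.22 and 6.30 with a median of 5.79 at 6 months and between 5.53 and 5.79 with a median of 5.66 at 20 months. The old mice lay wholly inside the younger range, at a change of -0.11 ± 0.14 (adjusted p = 0.870). Gpx4, which reduces lipid peroxides in membranes, lay between 6.92 and 7.74 with a median of 7.25 at 6 months and between 6.97 and 7.80 with a median of 7.12 at 20 months. Both ages covered the same range, with a change of -0.05 ± 0.17 (adjusted p = 0.958) that was 0.02 with quantile normalization.

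Catalase was read by 2 probes that went apart. The brighter probe, which gave the value of the gene, lay between 3.48 and 3.94 with a median of 3.77 at 6 months and between 3.58 and 4.01 with a median of 3.90 at 20 months. The ages overlapped and the change was 0.11 ± 0.09 (adjusted p = 0.794). The other probe averaged 2.08 ± 0.18 at 6 months and 1.87 ± 0.43 at 20 months (SD, n = 6 each), a change of -0.21 ± 0.18 in a fit of every probe (adjusted p = 0.804). Over the 12 arrays the probes had a Pearson r of -0.51 (permutation p = 0.0876, adjusted over 3 relations 0.131) and a Spearman rho of -0.56 (permutation p = 0.0625). Without 6 months replicate 2 and 20 months replicate 1, the arrays farthest from the median of the brighter probe, r was -0.67. It was 0.25 within the 6-month mice and -0.84 within the 20-month mice. The exon-spanning probe was set against the mean of the brown adipocyte markers, described further on. It had an r of 0.70 (permutation p = 0.0122, adjusted over the 3 relations 0.0367) and a rho of 0.66 (permutation p = 0.021). Its r was 0.61 without 6 months replicates 6 and 3, and 0.80 and 0.72 within the 6-month and the 20-month mice. The brighter probe had an r of -0.40 (permutation p = 0.192, adjusted 0.192) and a rho of -0.55 (permutation p = 0.0703) against that mean. Its r was -0.45 without the same arrays, and 0.22 and -0.95 within the ages. In the 20-month mice the marker mean was 0.52 in replicate 1 and between -0.46 and -0.19 in the others. The relations to it within that age therefore rest largely on that array. The 3 relations of these probes were adjusted among themselves and not over all genes, unlike the relations further on. The sequences show a difference between the probes. The brighter one, at chr2:103294487-103294546 of mm9 on the minus strand, holds a run of 16 bases of AC repeat, in capitals in the stretch of 28 bases printed. The other holds no such run and spans chr2:103297086-103300428, which is more than its own 60 bases.

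Cat repeat: acatacCACACACACACACACAtgcaat

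Cat exon-spanning: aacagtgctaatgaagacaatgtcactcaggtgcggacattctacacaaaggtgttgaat

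**Figure D2:**
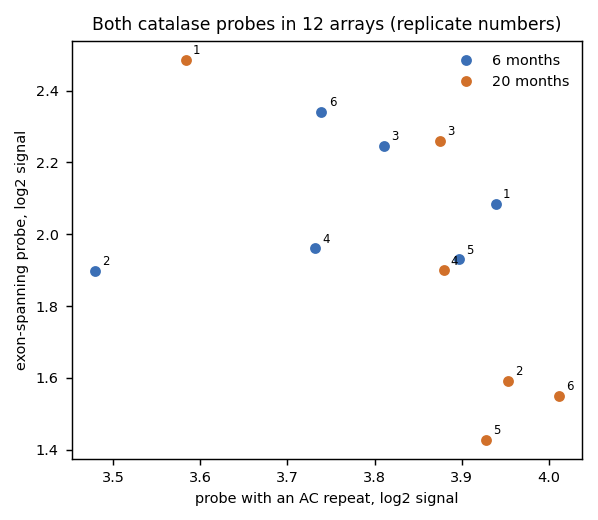
Signal of both catalase probes on each of the 12 arrays (log2, relative to the 75th percentile of the array), with the replicate number beside each point and the ages in colour. The probe with the AC repeat is on the horizontal axis. The points do not rise together (r = -0.51), and 20 months replicate 1 is highest on the vertical axis.

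Of the 20 genes with several measured probes, 14 had changes of 1 sign over their probes and 6 had both signs. These 6 were Aldh3a1, Cat, Fmo5, Gsr, Gstm6 and Txnip. The lowest correlation between probes of a gene, over 12 arrays and as a description, was negative for Cat, Gstm4 (-0.45), Gstm6 (-0.31) and Hmox1 (-0.02). It was 0.29 for Gstm1, whose brighter probe is placed on chromosome 5 and the other on chromosome 3. Mgst1 and Cyp2e1 had the most alike probes, at 0.99. Tested probe by probe, 0 of 79 measured probes of these genes were called, beside 71 of 27583 probes.

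The oxidases and other xenobiotic enzymes oxidise, reduce or hydrolyse foreign and internal compounds. Of 12, 11 were tested and 0 were called, with 6 changes above 0, 5 below and a median of 0.00. Quantile normalization gave 7 and 4. Cyp1a1, the classical target of the aryl hydrocarbon receptor, was not tested: it stood above background on 3 of the 6 arrays at 6 months and 1 of 6 at 20 months. Cyp1b1, which the same receptor drives, lay between 2.40 and 3.23 with a median of 2.54 at 6 months and between 2.70 and 3.07 with a median of 2.90 at 20 months. All 6 old mice lay above the younger median, but 6 months replicate 1 was the highest of all 12, and the change was 0.22 ± 0.14 (adjusted p = 0.728).

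Ephx1, the microsomal epoxide hydrolase, lay at 6.02, 5.95, 5.74, 5.87, 5.90 and 5.72 in the 6-month mice and at 5.79, 5.99, 6.17, 6.05, 6.19 and 6.26 in the 20-month mice, in order of replicate number. Of the old mice 4 lay above every younger one, and 20 months replicate 1 was low. The change was 0.21 ± 0.09, or 1.15-fold, with an adjusted p of 0.592. It was 0.04, 0.27 and 0.31 on the 3 slides alone. With the brown adipocyte marker mean as a covariate it was 0.07 ± 0.07. Its probe lies at chr1:182919689-182919748 of mm9 on the minus strand.

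Fmo1, a flavin monooxygenase, lay between 3.29 and 4.26 with a median of 3.78 at 6 months and between 3.07 and 3.94 with a median of 3.41 at 20 months. Its values in 2 old mice lay below the younger range, at a change of -0.29 ± 0.17 (adjusted p = 0.701). Nqo1, the quinone reductase that is a standard readout of NRF2, lay between 0.01 and 1.08 with a median of 0.52 at 6 months and between 0.00 and 0.75 with a median of 0.56 at 20 months. The ages overlapped throughout, at -0.01 ± 0.18 (adjusted p = 0.991). Without the 3 arrays with heart or T cell markers its change was 0.25 ± 0.15, still with an adjusted p of 0.592. The others, Cyp2e1, Fmo2, Fmo5, Aldh1a1, Aldh3a1, Aox1 and Por, had changes from -0.19 for Fmo2 to 0.17 for Aldh1a1. Cyp2e1, an ethanol-oxidising cytochrome, was lowest in 6 months replicate 2 (5.47) and highest in 6 months replicate 1 (7.66), so that its whole range lay within 1 age.

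The regulators showed small differences. Nfe2l2 lay between 3.07 and 3.23 with a median of 3.15 at 6 months and between 2.93 and 3.29 with a median of 3.15 at 20 months. The medians were nearly equal and the change was -0.04 ± 0.08 (adjusted p = 0.924), with a 95% interval from -0.20 to 0.13. Keap1 lay between 3.08 and 3.60 with a median of 3.57 at 6 months and between 2.96 and 3.74 with a median of 3.49 at 20 months. The old mice spread past the younger range on both sides, at -0.04 ± 0.15 (adjusted p = 0.956). Hmox1, the haem oxygenase that NRF2 induces, lay between 0.60 and 1.04 with a median of 0.97 at 6 months and between 0.90 and 1.15 with a median of 1.05 at 20 months. The younger range was exceeded in 4 old mice, and 6 months replicates 2 and 4 were low. The change was 0.16 ± 0.09 (adjusted p = 0.688). These are transcript levels. NRF2 is controlled mainly at the protein, which the arrays do not measure.

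**Figure D3:**
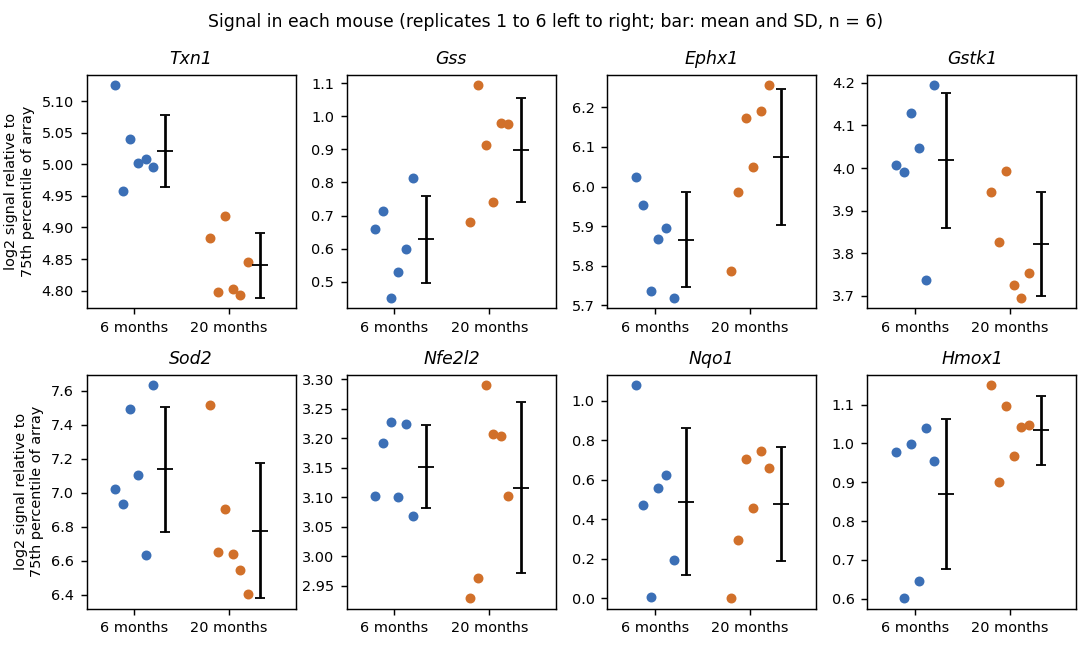
Level of 8 genes in each mouse (points, log2 signal relative to the 75th percentile of the array, replicates 1 to 6 from left to right within an age) with the mean and SD of each age (n = 6). Txn1 is the gene whose ages do not overlap, at 4.96 to 5.13 against 4.79 to 4.92, and Nfe2l2, Nqo1 and Sod2 overlap.

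In the thioredoxin system all 4 genes were tested and 0 were called, with a median change of -0.06. Txn1, thioredoxin itself, lay at 5.13, 4.96, 5.04, 5.0, 5.01 and 5.0 in the 6-month mice and at 4.88, 4.80, 4.92, 4.80, 4.79 and 4.84 in the 20-month mice, in order of replicate number. Every old mouse lay below every younger one, by a margin of the lowest younger value of 4.96 over the highest old value of 4.92. The change was -0.18 ± 0.06, or 1.13-fold lower, with a 95% interval from -0.31 to -0.06 and an adjusted p of 0.349. The SD within an age was 0.05, larger than that of 0.101% of all genes. The change was -0.16, -0.18 and -0.21 on the 3 slides alone, and -0.18 ± 0.06 with the brown adipocyte marker mean as a covariate. Over the alternatives it lay between -0.20 and -0.15, with adjusted p from 0.213 to 1.0. Its probe lies at chr4:57956677-57956736 of mm9 on the minus strand.

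Srxn1, sulfiredoxin, which repairs over-oxidised peroxiredoxins, lay between 3.12 and 3.79 with a median of 3.34 at 6 months and between 3.05 and 3.67 with a median of 3.23 at 20 months. The ages overlapped, at -0.07 ± 0.14 (adjusted p = 0.914). Txnip, which binds and inhibits thioredoxin, lay between 4.80 and 5.63 with a median of 5.30 at 6 months and between 4.79 and 5.49 with a median of 5.20 at 20 months. Both ages had low and high mice, at -0.05 ± 0.16 (adjusted p = 0.953). Txnrd1, the reductase of thioredoxin, had a change of 0.00 ± 0.07.

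The peroxiredoxins reduce peroxides with thioredoxin or, for Prdx6, with glutathione. All 6 were tested and 0 were called, with 5 changes below 0, 1 above (Prdx4) and a median of -0.09. Quantile normalization gave 4 and 2 with a median of -0.04. Prdx1 lay between 5.50 and 5.74 with a median of 5.52 at 6 months and between 5.11 and 5.67 with a median of 5.43 at 20 months. Of the old mice 4 lay below the younger range, and the change was -0.12 ± 0.09 (adjusted p = 0.766). Prdx3, the mitochondrial enzyme, lay between 3.62 and 4.55 with a median of 4.01 at 6 months and between 3.50 and 4.59 with a median of 3.72 at 20 months. The younger median was above 5 of the old mice while 20 months replicate 1 was the highest of all, at -0.22 ± 0.19 (adjusted p = 0.793). Prdx6 lay between 5.36 and 5.98 with a median of 5.66 at 6 months and between 5.41 and 5.85 with a median of 5.56 at 20 months. The old range lay inside the younger one, at -0.11 ± 0.11 (adjusted p = 0.821). Prdx2 and Prdx5 stood at -0.06 and -0.03.

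The superoxide dismutases turn superoxide into hydrogen peroxide, Sod1 in the cytosol, Sod2 in mitochondria and Sod3 outside cells, where the vessel wall is rich in it. All 3 were tested and 0 were called, with a median change of -0.10 that was -0.01 with quantile normalization. Sod2 lay at 7.02, 6.93, 7.50, 7.11, 6.64 and 7.63 in the 6-month mice and at 7.51, 6.65, 6.90, 6.64, 6.54 and 6.40 in the 20-month mice, in order of replicate number. Of the old mice 5 lay below the younger median, and 20 months replicate 1 was among the 3 highest of all 12. The change was -0.36 ± 0.20, or 1.28-fold lower, with an adjusted p of 0.687. It was -0.13, -0.35 and -0.60 on the 3 slides alone. With the brown adipocyte marker mean as a covariate it was -0.02 ± 0.14. The probe lies at chr17:13208074-13208133 of mm9 on the plus strand.

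Sod1 lay between 7.14 and 7.80 with a median of 7.47 at 6 months and between 7.18 and 7.60 with a median of 7.25 at 20 months. The old mice lay inside the younger range, at -0.10 ± 0.12 (adjusted p = 0.857). Sod3 lay between 6.96 and 7.69 with a median of 7.34 at 6 months and between 7.26 and 7.59 with a median of 7.35 at 20 months. Its medians were nearly equal, at 0.04 ± 0.11 (adjusted p = 0.949).

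The level of 11 of the 55 genes was related to markers of brown fat over the arrays by Pearson's r. By Spearman's rho it was 0, a count without a share of all genes to set beside it. The 9 brown adipocyte markers were Ucp1, Cidea, Dio2, Elovl3, Cpt1b, Otop1, Cox7a1, Cox8b and Ppargc1a. Their mean deviation from the 12-array average ran from -0.37 to 0.79 at 6 months and from -0.46 to 0.52 at 20 months. It was highest in 6 months replicate 6, 6 months replicate 3 and 20 months replicate 1. The last of these arrays also had the highest heart muscle marker mean, at 3.48. Whether the 9 markers come from brown fat alone was not tested. All 9 markers had a change below 0, with a median of -0.39 and 0 calls. The level of each gene was related to this mean over the 12 arrays, with a permutation test for each of the 16853 genes and Benjamini-Hochberg adjustment over them. The values share the arrays and their scaling. In bulk tissue fewer cells of a type and less RNA per cell cannot be told apart.

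A positive relation passed for 7 of the 55 genes (12.7%), beside 5.92% of all genes. They were Sod2 (Pearson r = 0.87, adjusted permutation p = 0.0216), Gstz1 (0.84), Prdx3 (0.83), Fmo1 (0.81), Gpx4 (0.79), Prdx5 (0.77) and Gsto1 (0.77). A negative relation passed for 4 (7.27%), beside 4.28% of all genes. They were Gstt3 (r = -0.92, adjusted permutation p = 0.0142), Ephx1 (-0.89), Gstm2 (-0.79) and Gstt1 (-0.76). None of these 11 passed with Spearman's rho, where Sod2 had 0.73 (adjusted permutation p = 0.157) and Gstt3 -0.76 (0.142). Even Gstt1, with a rho of -0.85 (permutation p = 0.00078), had an adjusted p of 0.109. The share of all genes passing by rho was not counted, so whether the 0 is particular to these genes cannot be said. Without 6 months replicates 6 and 3, the arrays farthest from the median, r was 0.73 for Sod2, -0.86 for Gstt3 and -0.80 for Ephx1. Among the 11 genes it was then weakest for Gstm2 (-0.54) and Gsto1 (0.57). Within each age the signs were the same: r was 0.80 and 0.87 for Sod2, -0.94 and -0.99 for Gstt3, and -0.93 and -0.83 for Ephx1 at 6 and 20 months. At 20 months, however, the marker mean was 0.52 in replicate 1 and between -0.46 and -0.19 in the other mice. The 20-month r values therefore rest largely on that array, and r within that age without it was not computed. A slide holds 4 arrays, too few for a value of its own. With each slide's mean removed, r was 0.95 for Sod2, -0.93 for Gstt3 and -0.92 for Ephx1.

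The relations depended on the scaling. With centring on the array median 4 positive relations passed, beside 2.63% of all genes, and the r of Gstt3 was -0.44 and that of Ephx1 -0.45, whereas that of Sod2 was 0.88. Without the 3 arrays with heart or T cell markers 0 positive relations passed over the 9 arrays left, beside 0 of all genes by an exact permutation test. In those 9 arrays r was still 0.86 for Sod2 and -0.97 for Gstt3. The part of fat in the differences between the ages was not tested, beyond the covariate values given beside the genes.

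**Figure D4:**
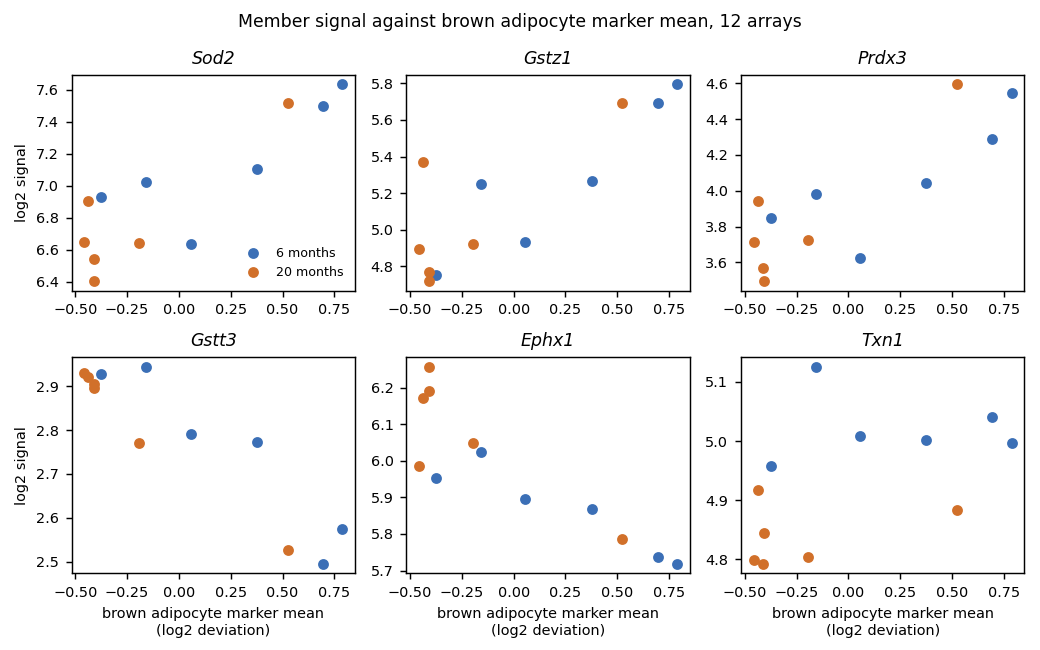
Level of 6 genes (log2 signal relative to the 75th percentile of the array) against the mean deviation of 9 brown adipocyte markers (log2) on the 12 arrays, with the ages in colour. Sod2, Gstz1 and Prdx3 are high where the markers are high, Gstt3 and Ephx1 are low there, and Txn1 splits by age.

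The 7 white adipocyte markers gave a mean that fell into separate sets of arrays. It lay between 0.27 and 0.40 on 5 arrays, which were 6 months replicates 1, 3 and 6 and 20 months replicates 1 and 3, and between -0.33 and -0.09 on the other 7. No correlation over all 12 is given for this reason. As a description of genes chosen after their values were seen, these 5 arrays were also the 5 highest for Gsto1, Mgst1, Gsta3, Sod1, Srxn1 and Gstm5. For Sod1 they ran from 7.54 to 7.80, and the next array stood at 7.40. The share of all genes with the same 5 highest arrays was not counted. The order is therefore not read as a trait of these genes.

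**Figure D5:**
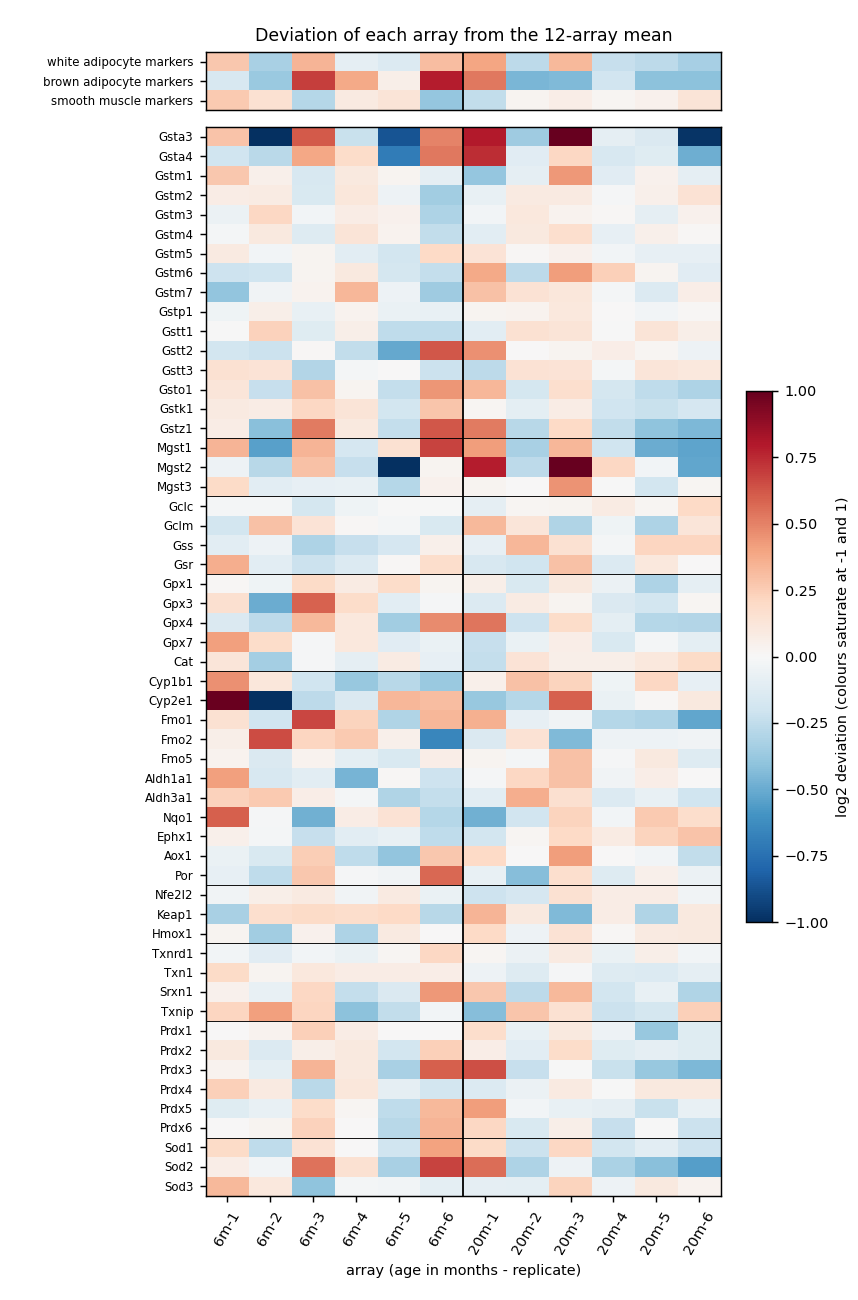
Deviation of each array from the 12-array mean (log2, colours saturate at -1 and 1) for 3 marker lists (top) and the 55 tested genes ordered by class (bottom), with the 6-month arrays left and the 20-month arrays right of the black line. Gsta3, Mgst2 and Cyp2e1 vary most, and 6 months replicates 3 and 6 and 20 months replicate 1 are alike in Gstz1, Prdx3 and Sod2.

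The wider pathway was read from a list of 118 names of other genes. These belong to glutathione, thioredoxin and NADPH supply, to drug metabolism and to NRF2 and aryl hydrocarbon receptor signalling. A few genes stood in the list under both an older and a newer name. Of the names 100 were tested and 0 were called, with 40 changes above 0, 60 below and a median of -0.03. At an unadjusted p under 0.05 there were 8 (7 higher and 1 lower), the same share as over all genes. The ages did not overlap in 3 of the 100 (3%), among them Cyb5r3 and Maff, beside 0.801% of all genes.

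The small MAF proteins are the partners with which NRF2 binds DNA. Maff lay between 0.59 and 1.13 at 6 months and between 1.16 and 1.77 at 20 months. Every old mouse lay above every younger one, with a change of 0.55 ± 0.13 (adjusted p = 0.122). Mafk lay between 1.82 and 2.64 at 6 months and between 2.47 and 2.86 at 20 months. The ages overlapped, with a change of 0.41 ± 0.13 (adjusted p = 0.328), and Mafg had 0.13. Bach1, a repressor at the same sites, had -0.15. Cyb5r3, a reductase of cytochrome b5, lay between 5.02 and 5.56 at 6 months and between 5.57 and 5.78 at 20 months. These did not overlap by a narrow margin, at 0.38 ± 0.09 (adjusted p = 0.121). Sqstm1, the p62 protein that can draw KEAP1 away, had 0.27 ± 0.07 (adjusted p = 0.203), and Ahr, the aryl hydrocarbon receptor, 0.04.

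The promoters of the genes were searched for the core of the antioxidant response element, TGACNNNGC, and of the aryl hydrocarbon receptor element, GCGTG, on both strands, from 250 bases before to 50 after the start of each gene. The sequences are RefSeq's for GRCm38.p6 and were found for 50 of the 59 genes. The first motif was in 10 of the 50 (20.0%), beside 14.0% of 27025 genes, and the second in 24 of the 50 (48.0%), beside 35.2%. The genes with the antioxidant core were Gsta3, Gstm5, Gstm7, Mgst1, Gclm, Nfe2l2, Txnrd1, Srxn1, Prdx1 and Sod1. Their changes ran from -0.27 to 0.23 with a median of -0.03, beside -0.01 for the 36 tested genes without a match. For the receptor core, the 21 tested genes with a match had changes from -0.36 to 0.27 with a median of -0.05. The 25 tested genes without it had a median of 0.03. These differences were not tested. A match is a description of letters and not of binding.

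Of these promoters 2 are printed to show where the match lies in a gene of glutathione synthesis and in a peroxiredoxin, both textbook targets of NRF2. Capitals mark the match to the antioxidant core, which is on the minus strand in both and begins 134 bases before the start for Gclm (chr3:122245307-122245606 of GRCm38.p6, plus strand) and 133 before it for Prdx1 (chr4:116685349-116685648, plus strand).

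Gclm: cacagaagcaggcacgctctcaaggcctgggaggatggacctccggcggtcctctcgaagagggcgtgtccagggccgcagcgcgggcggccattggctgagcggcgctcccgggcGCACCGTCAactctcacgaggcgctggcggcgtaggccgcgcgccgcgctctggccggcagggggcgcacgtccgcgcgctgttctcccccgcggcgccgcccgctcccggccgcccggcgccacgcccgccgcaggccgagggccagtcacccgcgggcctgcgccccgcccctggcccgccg

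Prdx1: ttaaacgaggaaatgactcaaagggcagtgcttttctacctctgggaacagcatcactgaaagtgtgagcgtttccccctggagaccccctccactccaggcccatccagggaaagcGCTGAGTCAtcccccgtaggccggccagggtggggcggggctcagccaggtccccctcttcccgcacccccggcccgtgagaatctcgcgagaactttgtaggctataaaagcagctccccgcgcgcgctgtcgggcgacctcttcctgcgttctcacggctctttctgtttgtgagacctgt

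Neither gene with a printed promoter was called, at a change of -0.03 for Gclm and -0.12 for Prdx1. Over the slides, 29 of the 55 genes had a change of the same sign on all 3 (52.7%), 17 above 0 and 12 below, beside 37.2% of all genes.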

How the data were processed

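Per the file headers, the arrays were read with Agilent Feature Extraction 10.7.1.1, and the deposited scanner files give an intensity per spot, the processed green signal after background subtraction. Probe positions refer to mm9. A deposited table of log2 values, whose steps are not given in the sources used here, served as an alternative. Outlier spots were dropped, the log2 intensities of repeated spots were averaged, and values were set relative to the 75th percentile of the gene probes on the same array. Probes well above background on at least 6 of 12 arrays entered, and the probe with the highest mean stood for its gene. Genes were named through RefSeq tables of GRCm38.p6, and all member accessions gave the member's symbol. The ages were fitted with limma 3.58.1 (R 4.3.3) on age alone, with Benjamini-Hochberg adjustment over 16853 genes. Relations used 100000 permutations (Python 3.11.15, numpy 2.4.6, pandas 2.3.3, scipy 1.17.1). The code was tested on simulated data.

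The genes, the gene lists and the naming rule were chosen with earlier results of these data known. The rule gives values per age for the 3 genes of smallest p in each class and for 16 fixed genes, 31 in all, and for 7 pathway genes (the 4 of smallest p, Ahr, Bach1 and Mafg). Same-numbered mice of the 2 ages had correlations of their deviations from -0.36 to 0.32, so the numbers were not taken as pairs. Alternatives covered background correction, scaling, the value table, filters, slide and replicate blocks, probe choice, eBayes settings and each array left out. Those without the 3 arrays with heart or T cell markers, with the brown adipocyte covariate and for the marker relations were added after seeing the data. The number of arrays, 6 at each age, limits how precise any value is. A gene of the pathway list is not reported here.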

Additional observations from a re-analysis of the deposited data

Results flagged for a closer look

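Of 124 groups of 6 values (the tested genes and the named pathway genes at each age), 6 held 1 value far from the others by Dixon's criterion (4.84%), where chance gives about 1 in 20 groups. In 20 months replicate 1, Gstt2 was high at 2.23 (the others reached 1.85), Prdx5 was high at 5.53 (the others reached 5.08), and Cat, by its repeat probe, was low at 3.58 (the others went down to 3.88). That array also had the highest heart muscle marker mean. In 6 months replicate 3, Prdx1 was high at 5.74 (the others reached 5.57) and Gclc was low at 1.42 (the others went down to 1.56). In 20 months replicate 3, Mgst3 was high at 3.90 (the others reached 3.47).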

How the results depend on the processing

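None of the 55 genes was called under any of the 26 tested alternatives, and none of the pathway genes under those run on it. In the replicate block, where same-numbered mice were paired although the numbers did not pair them, 6 genes of the whole array were called in place of 53. The whole-array count was 32 with median scaling, 24 with no filter on dim probes, 30 without the 3 arrays with heart or T cell markers, 30 with the brown adipocyte covariate, and 21 to 58 with each array left out in turn. The count for the 55 genes stayed at 0 and their median change ran from -0.02 to 0.02 over the arrays left out. Positive relations to the brown adipocyte markers numbered 4 with median scaling and 0 without the 3 arrays.

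The brown adipocyte covariate moved changes both ways, with none of the 55 genes called. Some changes grew, as for Mgst2 (0.41 to 0.67), Gsta3 (0.23 to 0.67), Gstt2 (0.18 to 0.42), Gpx7 (-0.17 to -0.28) and Hmox1 (0.16 to 0.23). Of the 55 genes, 21 had a change of the opposite sign with it, 10 of them named by the rule and 11 not. The share of all genes with a reversed sign was not counted. Among the 11, Gstz1 went from -0.22 to 0.14, Prdx5 from -0.03 to 0.17, Gsto1 from -0.14 to 0.084 and Gstt3 from 0.074 to -0.10. For the named genes the change was 0.030 for Mgst1, 0.021 for Gclm, 0.0036 for Gpx3, 0.26 for Gpx4, 0.035 for Keap1, 0.080 for Srxn1, 0.11 for Prdx3, 0.027 for Prdx6, 0.052 for Sod1 and -0.10 for Sod3. With median scaling it was 0.0049 for Gclm, 0.0027 for Gsr and 0.020 for Nqo1. Without the 3 arrays it was 0.048 for Gsr, 0.25 for Nqo1 and -0.092 for Ahr. Gpx4 was at 0.024 with quantile normalization and 0.024 in the value table, and Cat at -0.051 as the mean over its probes. With each array left out, ranges that crossed 0 were -0.10 to 0.030 (Gclm), -0.093 to 0.039 (Gsr), -0.16 to 0.037 (Gpx4), -0.11 to 0.11 (Nqo1), -0.071 to 0.0010 (Nfe2l2), -0.12 to 0.040 (Keap1), -0.15 to 0.0041 (Srxn1), -0.038 to 0.11 (Sod3), -0.14 to 0.028 (Txnip) and -0.068 to 0.20 (Ahr). The cause was not tested. Of the 55 genes, 22 kept 1 sign in every alternative. Scaling moved the median change of all genes by under 0.1. Each slide alone holds 2 arrays of each age and was used for values only.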
